A study of Mus musculus with 8 samples.

Results

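Potassium channel subunits were followed in the left hippocampus of Cav3.2 knockout and wild-type mice, each either trained or naive. The members were all probes with a value on each of 8 arrays whose annotated symbol begins with Kcn followed by a letter, with Kcne2 left out. This gave 67 probes for 55 genes, of 16588 probes with values for 11147 named genes. A further 31 of the 98 Kcn probes on the array were blank in the deposited table, and 21 of the 76 Kcn genes were represented by blank probes alone. These genes are not analysed here. The 4 groups were KTL (knockout, trained), KNL (knockout, naive), WTL (wild type, trained) and WNL (wild type, naive), with 2 arrays each. All were left hippocampi of male mice 6 to 8 weeks old, the wild type C57BL/6J and the knockout line backcrossed to C57/BL6, with the RNA of 3 mice pooled in a sample. The knockout is homozygous and constitutive, so that Cav3.2, a T-type calcium channel encoded by Cacna1h, is missing from the whole animal throughout life and not from the hippocampus alone. Training was trace fear conditioning, in which a tone and a foot shock are separated by an interval, and trained mice were killed after they had been returned to the conditioning context to test memory. Naive mice were not conditioned.

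Potassium channels let potassium leave the cell, which holds the resting potential, ends the action potential and sets how often a neuron fires. Voltage-gated (Kv) channels open on depolarisation, the inward rectifiers and the tandem-pore domain channels act mainly around rest, and the calcium-activated channels couple firing to calcium entry, including entry through T-type channels. In hippocampal pyramidal cells, Kv4 channels with their cytosolic partners carry the A-type current of dendrites, Kv7 and SK channels carry currents that slow repetitive firing, and channels of the GIRK family answer inhibitory receptors.

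The 2 KNL arrays stood apart from all others before any gene was considered. Over all 16588 probes a KNL array correlated with an array of another group at a Pearson's r of 0.852 to 0.938 on the log2 scale, arrays of the other 3 groups correlated with each other at 0.968 to 0.985, and the 2 arrays of a group at 0.979 to 0.993. Among the 67 members the median difference between the 2 arrays of a group was 0.12 (KTL), 0.15 (KNL), 0.19 (WTL) and 0.16 (WNL) on the log2 scale. All comparisons that contain KNL therefore rest on the same 2 arrays, and a property of these arrays and the naive knockout state cannot be told apart. It is not given whether a group's arrays came from different pools, so that p-values measure the spread between arrays, which may be technical. Cacna1h itself read 1171 and 1395 in KTL, 1929 and 1377 in KNL, 2836 and 1838 in WTL, and 2732 and 2985 in WNL. Its change was -0.81 ± 0.25 on the log2 scale in KNL vs WNL (limma, adjusted p = 0.0303) and -0.84 in KTL vs WTL (adjusted p = 0.190), and where its probe lies relative to the deleted part is not known. Markers of pyramidal cells and neurons were measured in all groups, and in KNL vs WNL 2 of the 9 fell (Neurod6 by 3.19 and Prox1 by 1.81 on the log2 scale) and 0 rose, with a median of -0.51. Prox1, a marker of granule cells, averaged 108 in KNL and 379 in WNL. Some markers of other cell types were on both KNL arrays at the floor of 100, to which lower intensities were raised, namely Vip, Aif1, Tmem119, P2ry12, Flt1, Tek and Rgs5. Tmem119 was at the floor on both WTL arrays as well. Other markers from the same lists went up: 1 interneuron marker rose (Npy, by 1.33) and 2 fell, and 1 endothelial and mural marker rose (Pecam1, by 1.02) and 3 fell. Of the microglial markers 0 rose and 2 fell. Over all probes 6.93% rose and 13.5% fell in KNL vs WNL. The part of these cell types in the channel values was not tested. In bulk tissue, fewer cells of a type and less RNA per cell cannot be told apart.

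The promoters of 6 genes named in the results that follow are printed, and a link between their sequence and these results was not tested. They are genes with 1 listed transcription start of which a probe fell in KNL (the second of 2 probes for Kcna6, Kcnd2, Kcnh7 and Kcnj3, and the single probe of Kcnip2) and the gene that rose there (Kcnn4). Each window holds the 150 bases before the start, 5′ to 3′ on the strand of the gene, from RefSeq on GRCm38.p6. Capitals mark a GC box (GGGCGG on either strand, the site type bound by Sp factors) or an E-box (CACGTG).
Kcna6, chr6:126740675-126740824, minus strand: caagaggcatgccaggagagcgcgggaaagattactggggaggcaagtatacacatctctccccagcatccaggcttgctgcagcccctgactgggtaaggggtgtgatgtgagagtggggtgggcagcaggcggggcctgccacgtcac
Kcnd2, chr6:21215196-21215345, plus strand: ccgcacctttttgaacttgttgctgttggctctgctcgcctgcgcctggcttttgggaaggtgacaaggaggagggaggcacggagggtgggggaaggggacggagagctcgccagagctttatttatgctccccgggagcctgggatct
Kcnh7, chr2:63184288-63184437, minus strand: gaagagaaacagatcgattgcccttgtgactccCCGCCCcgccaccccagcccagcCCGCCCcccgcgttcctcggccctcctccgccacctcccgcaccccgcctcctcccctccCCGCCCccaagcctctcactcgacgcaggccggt
Kcnj3, chr2:55435820-55435969, plus strand: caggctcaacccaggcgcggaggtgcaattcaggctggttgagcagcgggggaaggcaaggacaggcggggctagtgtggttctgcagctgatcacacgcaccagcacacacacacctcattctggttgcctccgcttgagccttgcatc
Kcnip2, chr19:45816064-45816213, minus strand: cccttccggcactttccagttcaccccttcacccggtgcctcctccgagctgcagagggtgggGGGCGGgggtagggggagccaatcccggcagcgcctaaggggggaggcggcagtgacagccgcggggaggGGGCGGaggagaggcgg
Kcnn4, chr7:24370113-24370262, plus strand: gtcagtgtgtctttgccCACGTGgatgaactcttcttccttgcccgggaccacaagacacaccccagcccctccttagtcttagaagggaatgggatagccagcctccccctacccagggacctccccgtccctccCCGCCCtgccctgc
Kcnh7 held 3 GC boxes, Kcnip2 held 2 and Kcnn4 held 1 GC box and 1 E-box, while these letters are not in the other 3 windows. The 150 bases ranged from 60.7% G and C in Kcnd2 to 73.3% in Kcnh7 and Kcnip2. The same motifs were searched in the 250 bases before each listed start. Of 61 listed starts of the 40 member genes that matched the table, 27 (44.3%) held a GC box and 4 (6.56%) an E-box, against 32.7% and 6.02% of 32851 listed starts of all genes. The cAMP response element TGACGTCA, the site of CREB, occurred before 0 of the 61 and before 1.55% of all starts. A match is a description of the letters only.

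In KNL vs WNL, which asks what the knockout does in untrained animals, 12 of the 67 potassium channel probes fell and 1 rose. Probes are counted as called where the adjusted p lay under 0.01 and the change exceeded 2-fold. The 12 probes that fell make up 17.9% of the members and the 1 that rose 1.49%, while over all probes 13.5% fell and 6.93% rose (20.4% in either direction). The probe of Kcnj11 was at least 2.19-fold lower, and the second probe of Kcna6, with 1 KNL array at the floor, at least 8.21-fold lower. They were spread over 8 of the 11 channel classes, and the class with the most was the partners of Kv channels, with 4 of 10 probes. No probe was called among the 4 of Kv3, the 3 of silent Kv subunits and the 2 of sodium-activated channels. The 54 other members did not pass. The median log2 change of all 67 was 0.29, against 0.16 for all probes, so that large falls of some members stood beside small positive changes of most others.

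**Figure D1:**
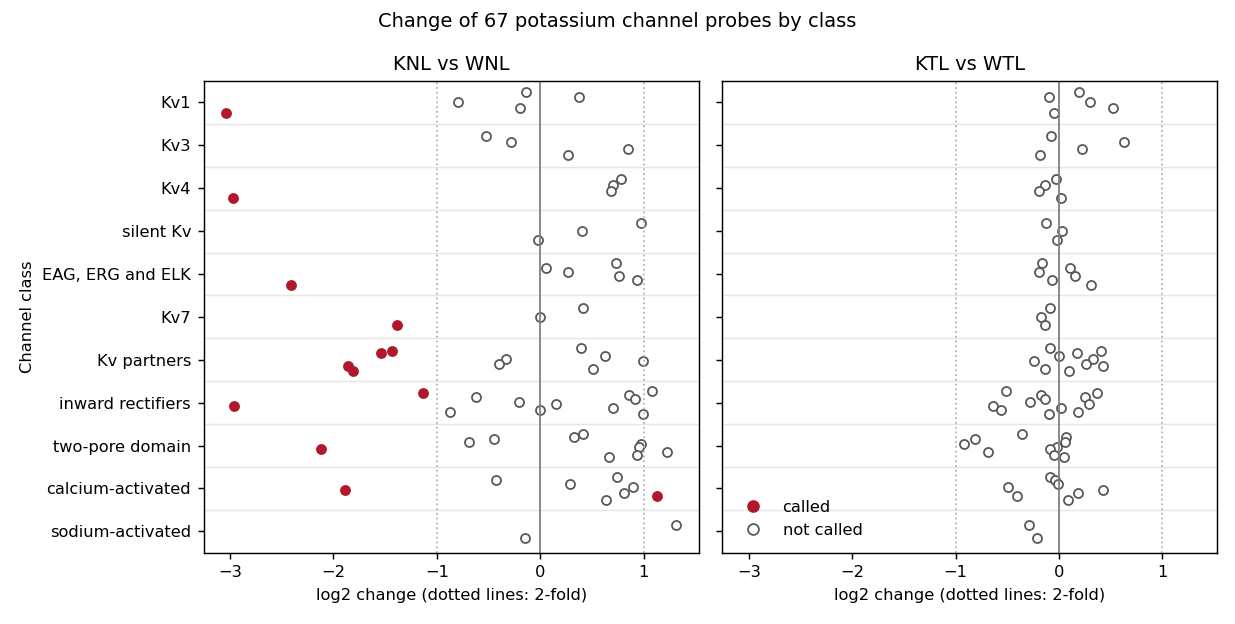
Log2 change of each of the 67 probes (horizontal axis) by channel class (vertical axis) in KNL vs WNL (left) and KTL vs WTL (right); filled points passed the test and dotted lines mark a 2-fold change. In KNL vs WNL 12 filled points lie to the left and 1 to the right, and in KTL vs WTL all points lie between -0.91 and 0.63 and none is filled.

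Among the pore-forming Kv subunits, 4 probes fell. The second probe of Kcna6, a Kv1 subunit, read 598 and 820 in KTL, 100 and 103 in KNL, 671 and 777 in WTL, and 922 and 755 in WNL. The second probe of Kcnd2, the Kv4 subunit of the dendritic A-type current, read 882 and 710 in KTL, 107 and 110 in KNL, 742 and 820 in WTL, and 748 and 973 in WNL. The second probe of Kcnh7, a subunit of the ERG family, read 666 and 624 in KTL, 125 and 127 in KNL, 536 and 507 in WTL, and 619 and 721 in WNL. In each of these probes both KNL arrays lay near the floor of 100 and far below the other 6 arrays, whose values overlapped between groups for Kcna6 and Kcnd2. In KNL vs WNL the log2 change was -3.04 ± 0.19 for Kcna6, as a lower bound of its size (adjusted p = 0.000161), -2.98 ± 0.17 for Kcnd2 (adjusted p = 0.000145) and -2.41 ± 0.11 for Kcnh7 (adjusted p = 0.000117; limma standard errors, n = 2 arrays per group). Kcnq5, a Kv7 subunit of the M-current, read 1055 and 1024 in KTL, 550 and 369 in KNL, 1056 and 1244 in WTL, and 1165 and 1195 in WNL. Here the KNL arrays were low but well above the floor, and they differed from each other. Its log2 change was -1.39 ± 0.20 (adjusted p = 0.00186), and the call was lost when WNL replicate 1 (adjusted p = 0.0123) or WNL replicate 2 (adjusted p = 0.0156) was left out.

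The partners of Kv channels gave the largest group of falls. Kcnip4 and Kcnip2 encode calcium-binding KChIP proteins that ride on Kv4 channels and shape the A-type current. Kcnip4 read 2357 and 2664 in KTL, 940 and 837 in KNL, 2713 and 2038 in WTL, and 3305 and 2937 in WNL, with a log2 change of -1.81 ± 0.17 in KNL vs WNL (adjusted p = 0.000455). Kcnip2 read 370 and 439 in KTL, 158 and 100 in KNL, 411 and 221 in WTL, and 430 and 482 in WNL, with a log2 change of -1.86 ± 0.33 (adjusted p = 0.00433), a lower bound of its size because 1 KNL array was at the floor. Both KNL arrays were the lowest of the 8 for each gene, and for Kcnip2 the 2 WTL arrays also lay far apart. The call of Kcnip2 was lost when any KTL, KNL or WNL array was left out, with an adjusted p of 0.0129 to 0.0412. Kcnab2 and Kcnab3 encode beta subunits that bind Kv1 channels on the cytosolic side. Kcnab2 read 5895 and 6380 in KTL, 3458 and 2296 in KNL, 4502 and 4772 in WTL, and 7295 and 7986 in WNL, and its log2 change was -1.44 ± 0.20 (adjusted p = 0.00165). It was lost without WNL replicate 1 (adjusted p = 0.01003) or WNL replicate 2 (adjusted p = 0.0148). Kcnab3 read 282 and 267 in KTL, the floor of 100 on both KNL arrays, 259 and 229 in WTL, and 275 and 309 in WNL, so that it was at least 2.92-fold lower in KNL than in WNL (adjusted p = 0.000241). The other 6 partner probes, of Kcnab1, Kcne1, Kcne1l, Kcne4, Kcnip1 and Kcnip3, changed by -0.40 to 0.99 and were not called. Among them Kcnab1, the brightest probe of the class, read 7886 and 7762 in KTL, 10208 and 9976 in KNL, 8355 and 8269 in WTL, and 7497 and 7905 in WNL, so that the KNL arrays were the highest.

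**Figure D2:**
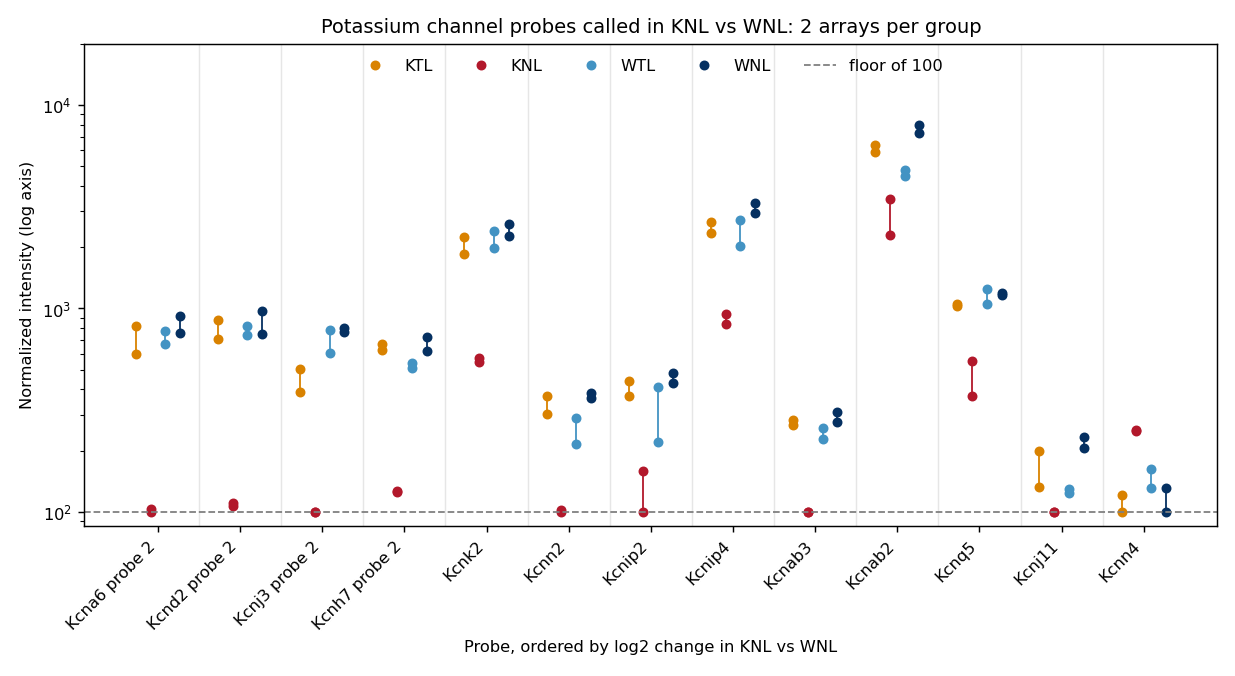
Normalized intensity (vertical log axis) on each array for the 13 probes called in KNL vs WNL (horizontal axis, ordered by change), with the 2 arrays of a group joined by a line and groups in the order KTL, KNL, WTL and WNL; the dashed line is the floor of 100. The KNL points are the lowest of each of the first 12 probes and the highest for Kcnn4.

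Of the channels that act around rest, 3 probes fell. The second probe of Kcnj3, a GIRK channel subunit that opens on inhibitory receptor signals, read 388 and 503 in KTL, the floor of 100 on both KNL arrays, 779 and 606 in WTL, and 763 and 798 in WNL. It was at least 7.80-fold lower in KNL than in WNL (adjusted p = 0.000145), and the KTL arrays lay between the KNL arrays and those of both wild-type groups. Kcnj11, the pore of the channel that senses ATP, was dim, at 133 and 199 in KTL, again at the floor on both KNL arrays, at 124 and 129 in WTL, and at 206 and 233 in WNL. It was at least 2.19-fold lower in KNL than in WNL (adjusted p = 0.00358), a call lost without any of the 2 KNL or 2 WNL arrays (adjusted p of 0.0156 to 0.0323). Kcnk2, the mechanosensitive TREK channel, read 1855 and 2256 in KTL, 571 and 548 in KNL, 2391 and 1979 in WTL, and 2263 and 2616 in WNL. Its KNL arrays agreed closely and its log2 change was -2.12 ± 0.15 (adjusted p = 0.000228). The rest of these classes did not follow: 10 of 12 inward rectifier probes and 9 of 10 tandem-pore probes were not called, and the class medians were 0.08 and 0.54.

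The class named calcium-activated was set by symbol, with Kcnu1 in it, and not by a known dependence of each member on calcium. Of its 8 probes 1 fell, 1 rose (12.5% each, against 13.5% and 6.93% of all probes) and 6 were not called. Kcnn2, an SK channel that is known to be opened by T-type calcium entry in several neurons, read 301 and 372 in KTL, 100 and 102 in KNL, 288 and 215 in WTL, and 383 and 363 in WNL. Its KNL arrays were at or next to the floor, and its log2 change was -1.88 ± 0.17, again a lower bound of its size (adjusted p = 0.000438). Kcnn4, the intermediate-conductance channel best known from blood cells, microglia and epithelia, was the single member that rose. It read 121 and 100 in KTL, 252 and 249 in KNL, 131 and 162 in WTL, and 131 and 100 in WNL, so that the KNL arrays were the highest of the 8. Its log2 change of 1.13 ± 0.18 (adjusted p = 0.00290) was lost without KNL replicate 1 (adjusted p = 0.0221), KNL replicate 2 (adjusted p = 0.0268) or WNL replicate 2 (0.93, adjusted p = 0.0178), and under cyclic loess normalization (0.95). Of the 9 measured microglial markers 0 rose and 2, Ctss and P2ry12, fell in KNL vs WNL (6.93% and 13.5% of all probes). Itgam gave 0.99 (adjusted p = 0.00151) and C1qb 0.70 (adjusted p = 0.00762), both under 2-fold, while Aif1, Tmem119 and P2ry12 were at the floor on both KNL arrays, and Tmem119 on both WTL arrays too. The microglial sums were 7700 and 7358 in KTL, 7728 and 7463 in KNL, 8478 and 8380 in WTL, and 8980 and 8197 in WNL. The part of other cell types in the rise of Kcnn4 was not tested. Kcnma1, the pore of the large-conductance BK channel, was measured by 2 probes, of which the brighter read 4729 and 4864 in KTL, 6854 and 6989 in KNL, 5044 and 5127 in WTL, and 4341 and 3968 in WNL. On this probe the KNL arrays were the highest, but the change of 0.74 ± 0.10 (adjusted p = 0.00156) stayed under 2-fold and was not called. The second probe went the other way, with the KNL arrays the lowest at 2383 and 2407. Its change of -0.42 ± 0.13 (adjusted p = 0.0307) was not called.

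Smaller differences were found among the other members. At an adjusted p under 0.01 and any fold, 15 members (22.4%) were higher in KNL than in WNL and 14 (20.9%) were lower, against 18.7% and 19.1% of all probes. Of the 15, all but Kcnn4 lay between 0.63 and 0.99 on the log2 scale, just short of 2-fold at the upper end, while 2 of the 14 lower members were under 2-fold. Kcng4, a silent subunit that alters other Kv channels, read 208 and 195 in KTL, 339 and 303 in KNL, 230 and 210 in WTL, and 170 and 157 in WNL (0.97 ± 0.11, adjusted p = 0.00103). Kcne4, a membrane subunit that damps Kv channels, read 291 and 282 in KTL, 548 and 497 in KNL, 313 and 368 in WTL, and 245 and 279 in WNL (0.99 ± 0.13, adjusted p = 0.00143). In both genes the KNL arrays were above all 6 others. Over the 67 members, both KNL arrays lay above all 6 other arrays for 31 (46.3%) and below all of them for 20 (29.9%), against 37.5% and 26.9% of all probes. Another 3 members exceeded 2-fold without passing the p threshold. They were Kcnk3, an acid-sensitive tandem-pore channel (1.22 ± 0.29, adjusted p = 0.0125), the brighter probe of Kcnt1, a sodium-activated channel (1.31 ± 0.42, adjusted p = 0.0348), and Kcnj10, the main inward rectifier of astrocytes (1.08 ± 0.33, adjusted p = 0.0297). Kcnj10 read 652 and 569 in KTL, 1000 and 973 in KNL, 850 and 889 in WTL, and 316 and 691 in WNL, and the gap between the 2 WNL arrays was as wide as that between groups. Of 9 measured astrocyte markers 0 rose and 1, Gfap, fell in KNL vs WNL (6.93% and 13.5% of all probes).

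The brightest probes of the 11 classes ran from -1.39 (Kcnq5) to 1.31 (Kcnt1) in KNL vs WNL, and Kcnq5 was the one called. Those of Kcnd2 (0.68), Kcnma1 (0.74), Kcnab1 (0.39) and Kcna6 (-0.20) were not called. Kcnc4, a fast-inactivating Kv3 subunit, read 2484 and 2420 in KTL, 3293 and 3057 in KNL, 2726 and 2851 in WTL, and 2909 and 2383 in WNL, a log2 change of 0.27 ± 0.13 (adjusted p = 0.105). Kcnk1, a tandem-pore channel with little current of its own, read 5492 and 6700 in KTL, 11129 and 9377 in KNL, 8889 and 6776 in WTL, and 6933 and 8515 in WNL (0.41 ± 0.19, adjusted p = 0.108). The KNL arrays were the highest of both genes, by less than the call requires. Kcnj4, an inward rectifier of forebrain neurons, gave 0.71 ± 0.23 (adjusted p = 0.0367), Kcnh1, of the EAG family, 0.73 ± 0.18 (adjusted p = 0.0134), and Kcns2, a silent subunit, -0.02 ± 0.14 (adjusted p = 0.925).

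Different probes of the same gene did not give the same change. Of the 55 genes, 11 had more than 1 probe, and 4 of these had a called probe in KNL vs WNL, Kcna6, Kcnd2, Kcnh7 and Kcnj3. In 0 of the 4 were all probes called, and in 3 of them the other probe had the opposite sign without being called. Probes were ordered by mean intensity over all 8 arrays, so that low KNL values themselves lowered the rank of a probe. In WNL alone the second probe averaged more than the first for Kcnd2 (853 and 626), Kcnh7 (668 and 403) and Kcnj3 (780 and 391). For Kcna6 it averaged less (834 and 1541). The brighter probe of Kcnd2 read 645 and 726 in KTL, 1178 and 853 in KNL, 801 and 765 in WTL, and 557 and 703 in WNL, a log2 change of 0.68 ± 0.19 (adjusted p = 0.0217) where the second probe gave -2.98. The brighter probe of Kcnj3 read 450 and 508 in KTL, 450 and 422 in KNL, 374 and 412 in WTL, and 405 and 378 in WNL, a change of 0.15 ± 0.12 (adjusted p = 0.277) where the second probe was at least 7.80-fold lower. The KNL arrays were thus the highest on the brighter Kcnd2 probe and among the others on the brighter Kcnj3 probe. For Kcnh7 the brighter probe gave 0.93 ± 0.48 (adjusted p = 0.132) and for Kcna6 -0.20 ± 0.11, against -2.41 and -3.04 on the second probes. Kcnj9, a GIRK subunit, gave -0.87 and 0.99, and Kcnk13, a tandem-pore channel of microglia, -0.69 and 0.97, on the first and the second probe. Both probes of Kcnd1, the other measured Kv4 gene, gave 0.78 and 0.71. The median range between probes of a gene was 1.66 on the log2 scale over the 11 genes and 0.77 over all 1751 genes with several probes. In KTL vs WTL it was 0.38 over the 11 genes and 0.28 over all. Among all such genes, 645 had a called probe in KNL vs WNL, 80 (12.4%) had every probe called in 1 direction and 297 (46%) had another probe of opposite sign. Which transcripts or exons the probes of a gene bind is not known, so that the calls for these genes belong to a probe and not to the gene as a whole.

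**Figure D3:**
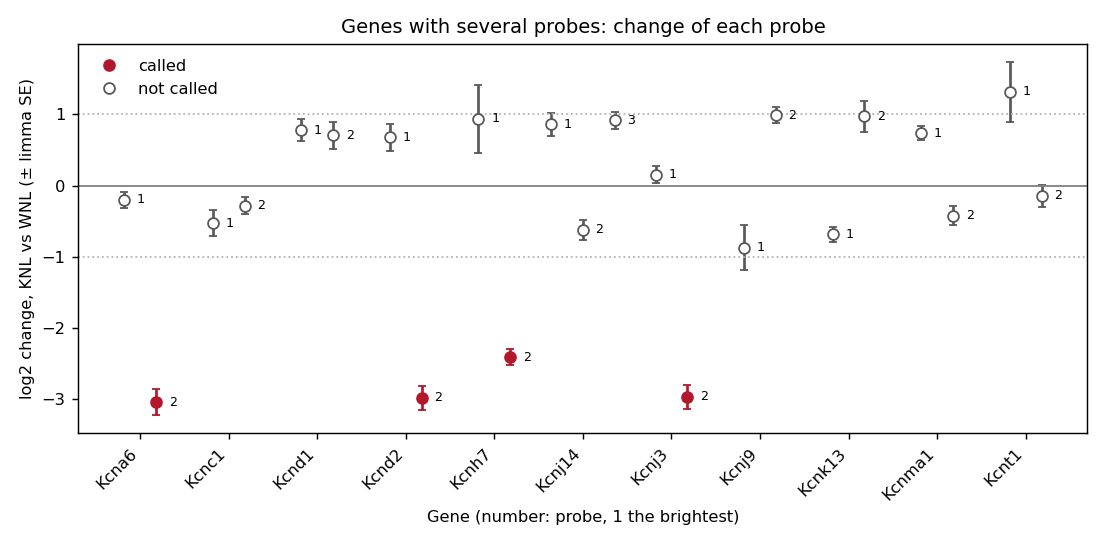
Log2 change in KNL vs WNL (vertical axis, ± limma standard error) of each probe of the 11 genes with several probes, numbered from 1 for the probe brightest over all 8 arrays; filled points passed the test and dotted lines mark a 2-fold change. The second probes of Kcna6, Kcnd2, Kcnh7 and Kcnj3 lie between -3.04 and -2.41, and their first probes between -0.20 and 0.93.

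The falls were found at all intensities. With all probes divided by mean intensity into bins of equal size, the dim bin (100 to 265) held 26 members, of which 3 fell and 1 rose. The middle bin (265 to 913) held 27, of which 6 fell, and the bright bin held 14, of which 3 fell. Over all probes the share that fell was 8.72%, 18.3% and 13.4% in the dim, middle and bright bins. The median change of the members was 0.37, 0.15 and 0.33 in these bins, against 0.26, 0.18 and 0.06 for all probes.

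**Figure D4:**
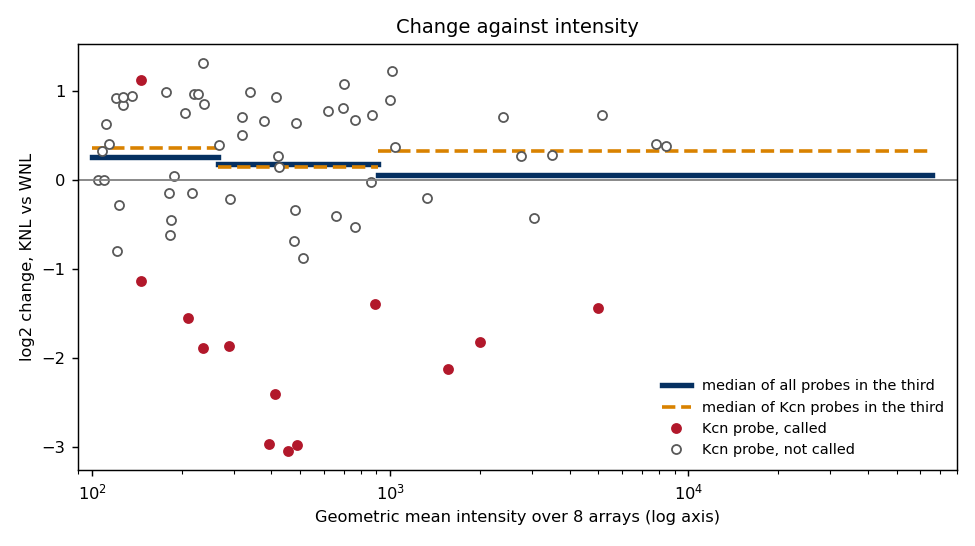
Log2 change in KNL vs WNL (vertical axis) against the geometric mean intensity over 8 arrays (horizontal log axis) for the 67 members; filled points passed the test, and lines give the medians of all probes (solid) and of the members (dashed) in each bin of intensity. The bright bin has a member median of 0.33 beside 0.06 for all probes, and called probes lie in every bin.

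In KTL vs KNL, which sets trained against naive knockout mice, 11 members rose and 3 fell, while 12.6% of all probes rose and 7.5% fell (20.1% in either direction). This comparison shares the KNL arrays with KNL vs WNL. The 11 that rose were the second probes of Kcna6, Kcnd2, Kcnh7 and Kcnj3, and Kcnq5, Kcnab2, Kcnab3, Kcnip2, Kcnip4, Kcnk2 and Kcnn2. Their log2 changes in KTL vs KNL were 2.79 ± 0.19 for Kcna6, 2.87 ± 0.17 for Kcnd2, 1.87 ± 0.15 for Kcnk2, 1.73 ± 0.17 for Kcnn2 and 1.12 ± 0.20 for Kcnab2, with adjusted p from 0.000205 to 0.00419. Those of Kcna6 and Kcnn2 are lower bounds, because KNL replicate 1 was at the floor. The call was kept whichever array was left out for Kcna6, Kcnd2, Kcnh7, Kcnj3, Kcnab3 and Kcnk2. It was lost for Kcnn2 without KNL replicate 2 (adjusted p = 0.0111), for Kcnip4 without KTL replicate 2 or KNL replicate 2 (0.0140 and 0.0144), and for Kcnq5 without KTL replicate 1, KTL replicate 2 or KNL replicate 2 (0.0127 to 0.0279). Kcnab2 was kept only without KNL replicate 1 or a WTL array (otherwise 0.0103 to 0.0365) and Kcnip2 only without a WTL array (otherwise 0.0162 to 0.0582). Kcnj11, at 133 and 199 in KTL and at the floor on both KNL arrays, was at least 1.63-fold higher, with an adjusted p of 0.0204, and was not called.

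The 3 members that fell in KTL vs KNL were Kcnn4 (-1.19 ± 0.18, adjusted p = 0.00269) and a pair of tandem-pore channels. The second probe of Kcnk13 read 162 and 125 in KTL, 331 and 413 in KNL, 225 and 318 in WTL, and 195 and 182 in WNL (-1.38 ± 0.22, adjusted p = 0.00297). Kcnk18, known from sensory neurons, read 100 and 105 in KTL, 228 and 272 in KNL, 100 and 108 in WTL, and 166 and 100 in WNL (-1.29 ± 0.24, adjusted p = 0.00500). The KNL arrays were the highest in both. All 3 calls were lost when any 1 of the 2 KTL or 2 KNL arrays was left out, with adjusted p of 0.0140 to 0.0266 for Kcnn4, 0.0134 to 0.0316 for Kcnk13 and 0.0233 to 0.0487 for Kcnk18. The median change of the 67 members was -0.19 and that of all probes -0.09.

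Among the groups other than KNL, 0 of the 67 members were called. In KTL vs WTL, the effect of the knockout in trained mice, 0.0241% of all probes were called, and the members changed by -0.91 to 0.63 with a median of -0.04. At an unadjusted p under 0.05 there were 10 of the 67 members, a smaller share than the 17.5% of all probes, and SAM called 0. The 2 groups did not overlap for 35 of the 67 members, a share near the 49.7% of all probes. The smallest adjusted p was 0.0533, for Kcnk12, a close relative of Kcnk13, which read 160 and 182 in KTL, 127 and 127 in KNL, 311 and 291 in WTL, and 169 and 178 in WNL. Its WTL arrays were the highest of the 8. Kcnj8, the pore of the ATP-sensitive channel of mural cells, was at the floor on all KTL and KNL arrays, at 134 and 161 in WTL, and at the floor on both WNL arrays. The brighter probe of Kcna6 read 1476 and 1460 in KTL, 1457 and 1239 in KNL, 995 and 1048 in WTL, and 1544 and 1538 in WNL, and gave 0.52 ± 0.11 in KTL vs WTL (adjusted p = 0.119). The WTL arrays were its lowest.

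In WTL vs WNL, the effect of training in wild-type mice, 0 members and 0% of all probes were called. The members changed by -0.80 to 0.90 with a median of 0.04, and SAM called 0 of them. Of the 67 members 21 had an unadjusted p under 0.05 in limma, a larger share than the 15.1% of all probes. In KTL vs WNL 0 members were called, against 0.0422% of all probes (0.00603% higher and 0.0362% lower), and the changes of the members ran from -0.82 to 0.45 with a median of -0.02. There, 10 of the 67 members had an unadjusted p under 0.05, a larger share than the 11.5% of all probes, and SAM called 0. The value of -0.82 belonged to the second probe of Kcnj3, with an adjusted p of 0.182. For the 12 probes that fell in KNL vs WNL, the change in KTL vs WTL ran from -0.64 (the second probe of Kcnj3) to 0.43 (Kcnn2). A p that misses the threshold does not show that the levels were equal.

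Training was followed by different changes in the 2 genotypes for 17 members, by the interaction of genotype and training, with 11 more positive in knockouts and 6 more negative, against 13.3% and 8.46% of all probes (21.8% in either direction). For the second probe of Kcnd2 the change with training was 2.87 in knockouts and -0.13 in wild-type mice, a difference of 3.00 ± 0.24 (adjusted p = 0.000890). For Kcnk2 it was 1.87 and -0.16, a difference of 2.03 ± 0.22 (adjusted p = 0.00154, and 0.0122 to 0.0127 without KTL replicate 2 or KNL replicate 2). For Kcnn4 it was -1.19 and 0.35, a difference of -1.53 ± 0.26 (adjusted p = 0.00502, and 0.0153 to 0.0273 without a KTL or KNL array, WTL replicate 2 or WNL replicate 2). The interaction contains the KNL arrays as well, and the calls held when each of the 8 arrays was left out for Kcna6, Kcnd2 and Kcnh7 alone.

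Proteins that bind potassium channels or share their task at rest were counted as a list of 31 genes outside the Kcn family, of which 23 were measured by their brightest probe. In KNL vs WNL 6 of the 23 fell and 0 rose, with a median of -0.54, where 13.5% of all probes fell and 6.93% rose with a median of 0.16. Slc12a5, the potassium chloride cotransporter that keeps chloride low in neurons, averaged 1494 in KNL and 7920 in WNL (-2.41 ± 0.19, adjusted p = 0.000265). Atp1b1, a beta subunit of the sodium pump, averaged 11817 in KNL and 53872 in WNL (-2.19 ± 0.14, adjusted p = 0.000174). Dlg1, a scaffold that binds Kv1 channels (-1.85), Slc12a2, the sodium potassium chloride cotransporter (-1.58), Adam22, a partner of Lgi1 near Kv1 channels (-1.37), and Amigo1, a partner of Kv2 channels (-1.13), also fell. Adam22 was at the floor on both KNL arrays, so that its change is a lower bound of its size. It averaged 159 in KTL, 140 in WTL and 258 in WNL, so that WNL was the highest group. The 17 others, Dpp6 and Dpp10, which bind Kv4 channels, among them (0.75 and -0.95), were not called. At an adjusted p under 0.01 but under 2-fold, Dlg4 (0.88), Abcc9 (0.78), Dpp6 and Stx1a (0.73) were higher. Dlg2 (-0.82) and Lgi1 (-0.57) were lower by the same measure. In KTL vs KNL 5 of the 23 rose and 0 fell (12.6% and 7.5% of all probes), and in KTL vs WTL 0 were called, with medians of 0.43 and -0.03.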

How the data were processed

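Total RNA of pooled left hippocampi was hybridized by the authors to the Mouse Whole Genome OneArray in 1 colour (Cy5). The deposited values are intensities on a linear scale, for which the authors averaged technical replicates and normalized the means. The methods give a floor of 100 and quantile normalization as steps of the analysis. The deposited columns carry no such floor, since they reached down to 7.23, and had medians of 481 to 482. The floor of 100, quantile normalization and log2 were applied here. The filter behind the 13334 blank probes (of 29922) is not given in the sources used here. After this, 6.64% to 6.86% of the probes of an array and 5 to 9 members lay at the floor, where differences are lower bounds. For arrays it is the number of arrays and the background that limit precision. Symbols came from the platform annotation (13183 probes with 1 symbol, 3405 with none, 0 with several), and 49 members were above the floor on all arrays.

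The 4 group means of each probe were estimated from the 8 arrays by limma 3.58.1 (R 4.3.3), leaving 4 residual degrees of freedom to which 2.45 prior ones were added. Benjamini-Hochberg adjustment ran over all 16588 probes in each of 6 comparisons. Calls used the thresholds of the methods, 0.01 for the adjusted p and 2-fold for the change. The methods used SAM, which has 6 splits with 2 arrays against 2, and it was run as an alternative. Means are geometric and errors are limma standard errors. Promoters were matched by symbol for 40 of 55 genes. The fit was tested on simulated data. Figures were drawn with matplotlib 3.10.9.

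The members and gene lists were chosen with earlier results of these data known. Named are all members called in KNL vs WNL, the 5 largest further calls of KTL vs KNL and the interaction, and the brightest probe of each class. Also named is every probe of a gene with a called probe in KNL vs WNL beside another of opposite sign. Genes whose probes differed in sign without a call are not all named. Others named, such as Kcnd1, Kcnk3, Kcnj10, Kcnk12 and Kcnj8, were chosen after their values were seen. Alternatives changed the floor, normalization, filter, test, thresholds and arrays. The labels do not say whether samples with equal replicate numbers share litter or day, and the main fit used no pairing. Correlations of the differences between replicates 1 and 2 ran from -0.25 (KTL with WTL) to 0.43 (KNL with WTL) between groups. They cannot tell whether samples were paired or shared a batch. The right hippocampi are not analysed here.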

Additional observations from a re-analysis of the deposited data

Results flagged for a closer look

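The effect of training differed between the genotypes for 17 potassium channel probes, by the interaction of genotype and training in the limma fit over all probes. They made up 25.4% of the members, near the 21.8% of all probes. Positive calls were 16.4% of the members and 13.3% of all probes, and negative calls 8.96% and 8.46%. Each value is the log2 change in KTL vs KNL minus that in WTL vs WNL. The difference was 3.00 for the second probe of Kcnd2, 2.99 for that of Kcna6, 2.71 for that of Kcnh7 and 2.33 for that of Kcnj3. These 4 probes had adjusted p-values of 0.000700 to 0.00149. Kcnn2 differed by 2.31, Kcnk2 by 2.03 and Kcnip4 by 1.91, and Kcnab2 by 1.84, Kcnab3 by 1.72, Kcnip2 by 2.28 and Kcnj11 by 1.49. For these 11 the estimated change with training was positive in knockouts and negative in wild-type mice. Among them Kcna6, Kcnj3, Kcnn2, Kcnab3, Kcnip2 and Kcnj11 had 1 or both KNL arrays at the floor, so that their differences are lower bounds.

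The difference was negative for 6 probes: -1.89 for the second probe of Kcnk13, -1.53 for Kcnn4, -1.24 for Kcne4, -1.10 for Kcng4, -1.09 for the second probe of Kcnj9 and -1.05 for the third probe of Kcnj14. Here the estimated change with training was negative in knockouts and positive in wild-type mice, at -1.38 to -0.67 in knockouts and 0.13 to 0.51 in wild-type mice. Every one of the 17 differences rests on the 2 KNL arrays, which stand apart over all probes. Left out in turn, 8 of 8 arrays kept the call for Kcna6, Kcnd2 and Kcnh7, 6 of 8 for Kcnj3, Kcnk2, Kcnn2 and Kcnab3, and 1 to 3 of 8 for the other 10. Apart from the third probe of Kcnj14, the adjusted p-values of these 10 when lost ran from 0.0101 (Kcnip4) to 0.0458 (Kcnip2).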

How the results depend on the processing

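The 12 falls in KNL vs WNL ranged from 8 to 13 over all alternatives, and 8 to 12 when 1 array was left out. The 1 rise there became 3 without a floor (beside 13 falls), 0 with a floor of 200, 0 with cyclic loess, 2 with a filter on dim probes, 4 with SAM, 0 with only the groups compared, 4 at an adjusted p under 0.05, 0 with a test against 2-fold, and 1 to 4 when 1 array was left out. In KTL vs KNL the 11 rises became 6 with a floor of 200, 5 with the test against 2-fold and 7 with the brightest probe of a gene, and 6 to 11 when 1 array was left out. The 3 falls there became 0, 7, 7 and 0 with the floor of 200, SAM, the adjusted p under 0.05 and the test against 2-fold, and 0 to 4 when 1 array was left out. In the interaction, 11 positive calls became 5 (floor of 200), 6 (test against 2-fold) and 7 (brightest probe), and 3 to 10 when 1 array was left out. Its 6 negative calls became 1, 0 and 3 under these and 10 at an adjusted p under 0.05, and 0 to 6 when 1 array was left out. No member was called in KTL vs WTL, WTL vs WNL or KTL vs WNL under any alternative run. The brightest probe of a gene was picked by its mean over all 8 arrays, KNL included. This leaves out the second probes of Kcna6, Kcnd2, Kcnh7 and Kcnj3, so that the counts with it depend in part on the values tested.

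A floor of 200 moved the median of the members in KNL vs WNL to 0, where it was 0.29, and that of all probes to 0, where it was 0.16. Among the falls it ended the calls of Kcnab3 (-0.54), Kcnip2 (-1.19), Kcnj11 (-0.13) and Kcnn2 (-0.90), and that of the rise of Kcnn4 (0.32). By construction it hides values between 100 and 200. With only the groups compared, Kcnq5, Kcnab2, Kcnip2 and Kcnn4 were lost. No call of a named probe turned its direction under the alternatives run. With the replicate number as a block, 1 member rose and 12 fell in KNL vs WNL, 11 rose and 2 fell in KTL vs KNL, and 10 and 4 were called in the interaction. Crossed pairing, chosen after seeing the data, gave 2 and 12 in KNL vs WNL and 12 and 5 in KTL vs KNL.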

Other observations

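Lists of cell type markers, each with 10 genes and represented by the brightest probe of each gene, give the setting of the channel values in KNL vs WNL. In that comparison 6.93% of all probes rose and 13.5% fell. Of 9 measured pyramidal and neuronal markers 0 rose and 2 fell (Neurod6 by 3.19 and Prox1 by 1.81 on the log2 scale), with a median of -0.51. Of 9 interneuron markers 1 rose (Npy) and 2 fell (Slc32a1 and Vip), with a median of -0.20. Of 9 astrocyte markers 1 fell (Gfap), of 9 oligodendrocyte markers 0 were called and of 9 microglial markers 2 fell (Ctss and P2ry12), with medians of -0.44, 0.03 and -0.32. Under 2-fold, Mbp gave -0.89 (adjusted p = 0.00151) and Olig2 0.75 (adjusted p = 0.00378). Of 8 endothelial and mural markers 1 rose (Pecam1) and 3 fell (Flt1, Rgs5 and Pdgfrb), with a median of -0.16. Flt1, Tek and Rgs5 were at the floor on both KNL arrays. Of 8 choroid plexus markers 2 fell (Enpp2 and Ttr), with a median of -0.35. The sum of the 8 was 19931 and 20805 in KTL, 17732 and 14013 in KNL, 42681 and 40322 in WTL, and 54985 and 53781 in WNL. Most of it was Ttr, which averaged 11775 in KNL and 49439 in WNL. Under 2-fold, Slc4a5 gave 0.90 (adjusted p = 0.00679), Cldn2 0.72 (adjusted p = 0.0238) and Otx2 -0.77 (adjusted p = 0.00423). Folr1, Kl and Clic6 changed by -0.38 to -0.32. In KTL vs WTL the choroid plexus markers had a median of -0.97 and 0 were called, while the potassium channel members had a median of -0.04. The part of any of these cell types in the channel values was not tested.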
